A study of Mus musculus with 2 samples.

Results

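Potassium channels are assembled from pore-forming subunits and auxiliary subunits, and most genes of these subunits carry symbols that begin with Kcn. The genes described here are those whose symbol is Kcn followed by letters and an optional number, among probe sets that the platform annotation pairs with 1 gene alone; Kcnj13, an inward rectifier of choroid plexus, was left out by the rule. This gave 79 genes of 18194 in all, read by 157 of 34958 probe sets. RNA had been taken at postnatal day 14 from the cerebrum of a laggard (lag) mutant mouse and of a wild-type mouse described as its littermate, with 1 array per genotype. The lag mutation is spontaneous and recessive, lies at a splice acceptor of Kif14, a kinesin needed for cell division, and had been backcrossed to C57BL/6J. Neither animal had a treatment stated, and the number of mice behind each array and their sex are not given in the sources used here. With 1 array per genotype there was no replicate check and no p-value, so every fold describes these 2 arrays.

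Potassium leaving through these channels sets the resting potential of neurons, ends the action potential and spaces out firing. Voltage-gated channels (Kcna to Kcnd, Kcnq and Kcnh) open on depolarisation, others open when calcium or sodium enters, inward rectifiers (Kcnj) pass current best near rest, and channels whose subunits hold a pair of pore domains (Kcnk) carry the leak current. In brain, Kv1 channels lie under the myelin beside the nodes of axons, Kv4 channels carry the fast A-type current of dendrites, Kv3 channels let interneurons fire fast, and Kir4.1 of glia takes up potassium that neurons release.

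Both arrays held the defining genes of brain tissue, and the lag mutant array stood apart in its myelin genes. All 7 general neuron markers were above background on both arrays and within 1.5-fold, and Snap25, a vesicle fusion protein, had 16408 in the lag mutant and 15349 in wild type. The 9 oligodendrocyte markers on the array were each at least 2-fold lower in the lag mutant, and their signals summed to 2591 in the lag mutant and 35598 in wild type. All 6 markers of oligodendrocyte precursors were lower too, from 1.19-fold for Ptprz1 to 18.4-fold for Gpr17. They summed to 11226 in the lag mutant and 18903 in wild type. Kif14 itself had 0.733 in the lag mutant and 6.85 in wild type, under background on both arrays, so its probe set does not check the labels. By real-time PCR of whole brain at younger ages, the paper saw no noticeable difference in Kif14, Pdgfra or Olig2 mRNA between lag/lag mice and littermate controls. It also found no significant difference in cells stained for Olig2 or PDGFRα in embryonic neocortex. In bulk tissue, fewer cells of a type and less RNA per cell cannot be told apart.

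Potassium channel subunit genes differed little between the arrays, and Kcnip3 alone was at least 2-fold apart. The signals are MAS5 intensities, linear and scaled by the authors. A signal counted as background when it lay under 49.0 on the lag mutant array or 51.2 on the wild-type array, each the 95th percentile of 171 probe sets for genes taken as silent in brain, olfactory receptors among them. Where a gene had several probe sets, the brightest on average stood for it. Of the 79 genes, 61 were above background on both arrays, 3 on 1 array only and 15 on neither. Of the 64 above background on at least 1 array, 1 was at least 2-fold lower in the lag mutant, against 1.03% of all such genes, and 0 were at least 2-fold higher, against 0.701%. At 1.5-fold, 3 were lower (4.69%), against 3.55% of all genes, and 1 was higher (1.56%), against 4.14%. The other 60 (93.8%) lay within 1.5-fold, as did 92.3% of all genes. The shares past either fold were thus near the background of all genes. The median log2 ratio of the 64, lag mutant over wild type, was 0.05, with quartiles of -0.07 and 0.24, and that of all 13846 genes above background was 0.01, with quartiles of -0.15 and 0.17. A higher signal in the lag mutant was found for 38 of the 64 (59.4%), against 51.9% of all genes.

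**Figure D1:**
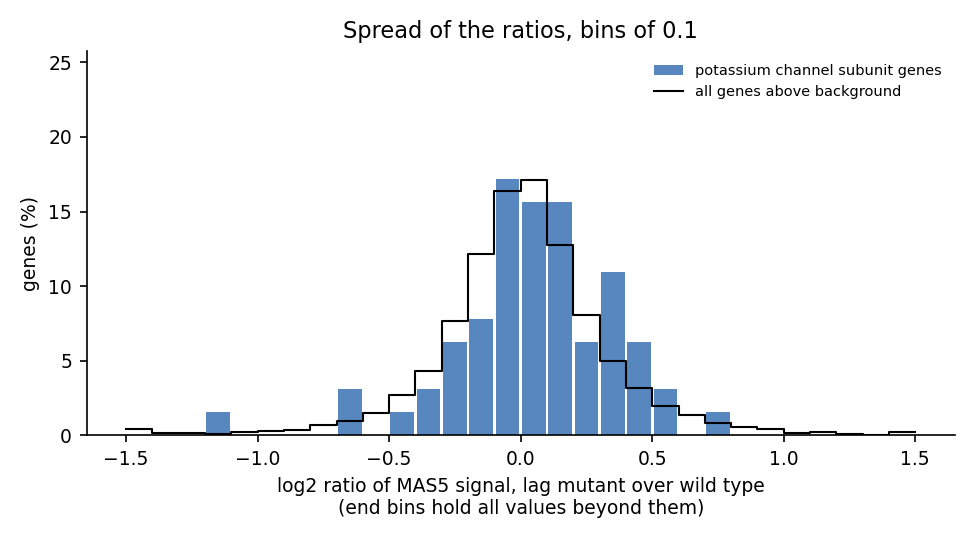
Share of genes (%, vertical axis) in each bin of the log2 ratio of the mutant signal to the wild-type signal (horizontal axis), for the potassium channel subunit genes (bars) and for all genes above background on at least 1 array (line). Of the 64 channel genes, 60 lie within 1.5-fold, and Kcnip3 lies beyond 2-fold lower.

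Sequences at 4 starts are shown for Kcnip3, the gene with the largest difference, and for Kcnj3 and Kcnj9, subunits that can share a channel and that both had a higher signal in the lag mutant. Each is a RefSeq window of 300 bases on GRCm38.p6, written 5′ to 3′ along the gene's strand, and capitals mark the GC box GGGCGG, searched on both strands. RefSeq gives 3 windows for Kcnip3, of which the outer pair is printed.
Kcnip3, first start, chr2:127522045-127522344, minus strand: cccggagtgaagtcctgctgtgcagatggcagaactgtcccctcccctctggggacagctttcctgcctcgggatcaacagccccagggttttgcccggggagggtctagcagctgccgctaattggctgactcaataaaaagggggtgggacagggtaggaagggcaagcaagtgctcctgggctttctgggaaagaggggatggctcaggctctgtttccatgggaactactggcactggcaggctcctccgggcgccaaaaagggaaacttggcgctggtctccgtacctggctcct
Kcnip3, last start, chr2:127482450-127482749, minus strand: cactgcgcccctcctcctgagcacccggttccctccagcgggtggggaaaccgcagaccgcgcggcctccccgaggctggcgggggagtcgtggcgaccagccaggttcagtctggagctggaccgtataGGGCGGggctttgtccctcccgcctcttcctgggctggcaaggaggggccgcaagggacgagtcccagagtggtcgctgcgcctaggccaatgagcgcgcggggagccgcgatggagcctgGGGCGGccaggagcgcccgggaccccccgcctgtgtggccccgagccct
Kcnj3, chr2:55435720-55436019, plus strand: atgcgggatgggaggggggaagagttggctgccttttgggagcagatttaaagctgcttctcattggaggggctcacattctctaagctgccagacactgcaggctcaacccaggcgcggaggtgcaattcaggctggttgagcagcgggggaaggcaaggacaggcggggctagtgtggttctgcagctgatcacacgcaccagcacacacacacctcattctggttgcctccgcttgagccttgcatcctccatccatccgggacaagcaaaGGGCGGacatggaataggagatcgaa
Kcnj9, chr1:172329273-172329572, minus strand: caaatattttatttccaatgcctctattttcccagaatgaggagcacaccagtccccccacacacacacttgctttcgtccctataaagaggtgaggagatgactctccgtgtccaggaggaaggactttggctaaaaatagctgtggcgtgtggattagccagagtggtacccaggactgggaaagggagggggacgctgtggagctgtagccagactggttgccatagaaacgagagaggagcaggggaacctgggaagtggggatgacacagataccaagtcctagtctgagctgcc
The first window of Kcnip3 held 0 GC boxes and 8 CpG dinucleotides, and the last held 2 GC boxes and 28 CpG. The window of Kcnj3 held 1 GC box and 10 CpG, and that of Kcnj9 held 0 GC boxes and 5 CpG. Windows were found for 60 of the 79 genes. A GC box was in 41 of their 85 windows (48.2%), against 35.7% of all 32851 windows. The cAMP response element TGACGTCA was in 0 of the 85, against 1.79% of all windows, the E-box CACGTG in 6 (7.06%), against 7.15%, and the TATA motif TATAAA in 4 (4.71%), against 13.6%. All were searched on both strands, and no motif contains another. These matches describe letters only, and the arrays did not measure which start was used.

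Voltage-gated pore subunits of the Kcna, Kcnc and Kcnd families were all above background on both arrays, and none was past 1.5-fold. Of 13 genes, 6 were higher in the lag mutant and 7 lower, with a median log2 ratio of -0.03. Kcna1, the Kv1.1 subunit of axons, had 1215 in the lag mutant and 1241 in wild type, and its other 2 probe sets above background were lower in the lag mutant too, by 1.10-fold and 1.14-fold. Kcna2, its partner Kv1.2 beside the node, had 928 in the lag mutant and 1104 in wild type, 1.19-fold lower. A second probe set of Kcna2 gave 649 in the lag mutant and 818 in wild type, while a dim one gave 62.3 in the lag mutant and 9.78, under background, in wild type, at least 1.22-fold higher. The brighter probe sets of both genes thus gave a slightly lower signal in the lag mutant.

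Kcna4, the A-type Kv1.4 of axon terminals, had 373 in the lag mutant and 361 in wild type. Kcna6 (Kv1.6) had 694 in the lag mutant and 580 in wild type, and a dimmer probe set gave 107 in the lag mutant and 69.8 in wild type. Kcna7, known from muscle, had 89.6 in the lag mutant and 63.3 in wild type, 1.42-fold higher near background. Kcna3, the Kv1.3 of lymphocytes and microglia, was 1.11-fold higher and Kcna5 1.06-fold lower. Beta subunits dock to Kv1 channels on the inside of the membrane: Kcnab1 had 1632 in the lag mutant and 1424 in wild type, and Kcnab2 had 968 in the lag mutant and 1051 in wild type. Cntnap2 and Cntn2, which hold Kv1 channels beside the node, were 1.15-fold and 1.13-fold lower in the lag mutant. These differences were small beside those of the oligodendrocyte markers, the least of which, that of Mal, was 3.81-fold.

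Kv3 channels, which repolarise fast-spiking cells, had the lowest median log2 ratio of the pore families, -0.27 over 3 genes. Kcnc1 (Kv3.1) had 576 in the lag mutant and 809 in wild type, 1.40-fold lower. The next probe sets gave 423 in the lag mutant and 502 in wild type, and 414 in the lag mutant and 460 in wild type, so these too were lower. A dim probe set of Kcnc1 was above background only in the lag mutant, at 80.8 against 35.8 in wild type. Kcnc2 (Kv3.2) was level, with 1283 in the lag mutant and 1279 in wild type. Kcnc4 (Kv3.4) had 539 in the lag mutant and 648 in wild type by a probe set that can match several transcripts. Its other probe set had 41.7, under background, in the lag mutant and 119 in wild type, at least 2.42-fold lower. Kcnc1 and Kcnc4 therefore had a lower signal in the lag mutant by most of their probe sets, to very different extents.

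Markers of inhibitory cells were mixed. Of 6 above background, 4 were lower and 2 higher in the lag mutant, and the 7 on the array summed to 18022 in the lag mutant and 18817 in wild type. Pvalb, the calcium-binding protein of fast-spiking cells, had 255 in the lag mutant and 391 in wild type. Markers of cerebellum, where Kcnc1 is abundant, were lower in 5 and higher in 2 of 7 above background. The 8 on the array summed to 14123 in the lag mutant and 13052 in wild type, with Zic1 and Calb1, the 2 higher ones, the brightest. Pcp2 had 36.2, under background, in the lag mutant and 271 in wild type. Gabra6 had 41.6, under background, in the lag mutant and 144 in wild type. The part of inhibitory and cerebellar cells in the Kcnc1 and Kcnc4 values was not tested.

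**Figure D2:**
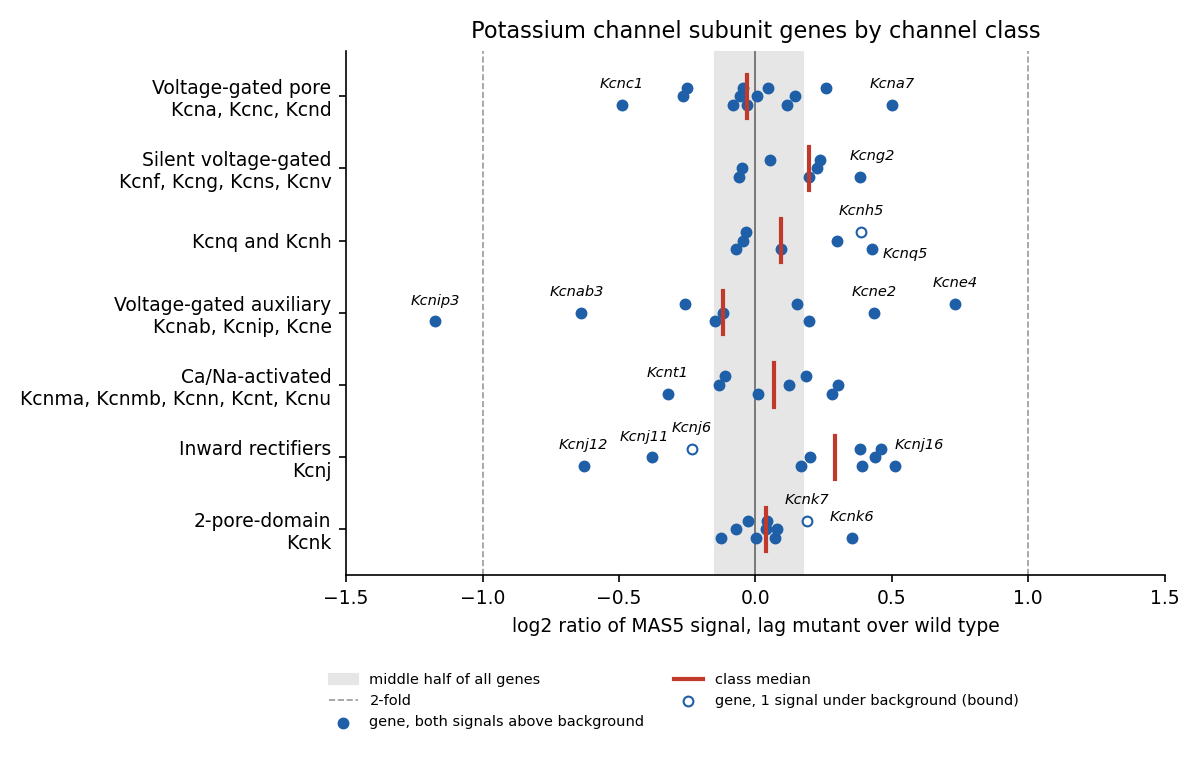
Log2 ratio of the mutant signal to the wild-type signal (horizontal axis) for the 64 genes above background on at least 1 array, by channel class (vertical axis). Each point is a gene, open where 1 signal was under background and the ratio is a bound; the red line is the class median, the grey band runs between the quartiles of all genes, and the dashed lines are 2-fold. Kcnip3 lies beyond 2-fold lower, and the inward rectifiers have the highest class median, 0.29.

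Kv4 channels and their calcium-sensing partners held the largest difference. By their brightest probe sets the pore subunits were nearly level: Kcnd2 (Kv4.2) had 5360 in the lag mutant and 4949 in wild type, Kcnd3 (Kv4.3) was 1.04-fold lower and Kcnd1 1.03-fold lower. A dim probe set of Kcnd3 gave 57.7 in the lag mutant and 83.8 in wild type, 1.45-fold lower, and one of Kcnd1 was 1.27-fold higher. Kcnip1 to Kcnip4 encode KChIP proteins, calcium-binding partners of these channels. Kcnip3, whose protein is also known as calsenilin and DREAM, had 206 in the lag mutant and 464 in wild type, 2.25-fold lower. Its other probe set gave 217 in the lag mutant and 234 in wild type, 1.08-fold lower, so both were lower but their log2 ratios lay 1.07 apart. Averaged over both, the log2 ratio of Kcnip3 was -0.64, past 1.5-fold and short of 2-fold.

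The other KChIP genes differed less. Kcnip1, found in interneurons, had 1137 in the lag mutant and 1361 in wild type, its second probe set was 1.10-fold lower, and its dimmest was 1.51-fold lower. Kcnip2 had 1022 in the lag mutant and 1132 in wild type, but a second probe set was 1.09-fold higher. Averaged over both, its log2 ratio was -0.01. Kcnip4 had 1399 in the lag mutant and 1257 in wild type, and all 3 of its probe sets were higher. Dpp6, a transmembrane partner of the same channels, had 1706 in the lag mutant and 1992 in wild type, and its relative Dpp10 was 1.07-fold lower.

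Other auxiliary subunits also differed past 1.5-fold. Kcnab3, a beta subunit of Kv1 channels, had 82.2 in the lag mutant and 128 in wild type, 1.56-fold lower, and a second probe set gave 31.1, under background, in the lag mutant and 54.6 in wild type. Averaged over both, with the second entered as a bound, the log2 ratio of Kcnab3 was -0.40 or lower. Whether that average passed 1.5-fold was therefore not settled. Kcne4, a single-pass subunit that damps several voltage-gated channels, had 210 in the lag mutant and 126 in wild type, 1.66-fold higher by its only probe set. Kcne2, a related subunit abundant in choroid plexus, had 176 in the lag mutant and 130 in wild type, 1.35-fold higher. The class thus held the lowest and the highest ratio among the 64, and its median log2 ratio was -0.12 over 9 genes.

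Choroid plexus markers were 2 higher and 2 lower of 4 on the array, and summed to 21724 in the lag mutant and 23364 in wild type, with Folr1, a folate receptor, at 474 in the lag mutant and 206 in wild type. Markers of pericytes and smooth muscle were 2 higher and 5 lower of 7 above background, and the 8 on the array summed to 10152 in the lag mutant and 10384 in wild type. Their part in the Kcne2 and Kcne4 values was not tested. Kcne1 and Kcne3 were under background on both arrays.

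The M-current, which holds back repeated firing, is carried by Kcnq channels. Kcnq3, a pore subunit of the axon initial segment, had 3195 in the lag mutant and 2594 in wild type, 1.23-fold higher, and a second probe set gave 271 in the lag mutant and 201 in wild type. Kcnq5 had 1520 in the lag mutant and 1130 in wild type, 1.35-fold higher, and a second probe set was 1.12-fold higher. A dim probe set of Kcnq5 went the other way, with 98.5 in the lag mutant and 180 in wild type, 1.82-fold lower. Averaged over all 3, the log2 ratio of Kcnq5 was -0.09, so the direction for this gene depends on the probe set. Ank3, the ankyrin that anchors Kcnq channels, had 7766 in the lag mutant and 9214 in wild type.

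Kcnh genes are relatives of the ether-a-go-go channel of flies, and Kcnh1, Kcnh2, Kcnh3 and Kcnh8 lay within 1.07-fold by their brightest probe sets. Those of Kcnh3 were split, since a second was 1.20-fold higher and another 1.26-fold lower. Kcnh5 had 67.0 in the lag mutant and 42.9, under background, in wild type, at least 1.31-fold higher. Kcnq1 and Kcnh7 were under background on both arrays.

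Silent voltage-gated subunits form no channel of their own and modify those of other subunits. Of 7 above background, 5 (71.4%) were higher in the lag mutant, against 51.9% of all genes, and 2 lower. Their median log2 ratio was 0.20. Kcng2 had 106 in the lag mutant and 81.1 in wild type, 1.30-fold higher and the highest of the class. Kcnf1 had 1263 in the lag mutant and 1080 in wild type, but its dimmer probe set was 1.21-fold lower. Kcns1 had 88.8 in the lag mutant and 75.5 in wild type, Kcng1 was 1.14-fold higher, and Kcns2, Kcns3 and Kcnv1 lay within 1.05-fold by their brightest probe sets. Kcnv1 counted as lower on that probe set, while its other 2 were 1.16-fold and 1.25-fold higher. Kcng4 and Kcnv2 were under background on both arrays.

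Inward rectifiers had the highest class median, a log2 ratio of 0.29, with 7 of 10 (70%) higher in the lag mutant, against 51.9% of all genes. Subunits of GIRK channels, by which transmitters acting through G proteins quiet neurons, made up 3 of the 7. Kcnj3 (GIRK1) had 1426 in the lag mutant and 1092 in wild type, 1.31-fold higher, and its next probe set gave 666 in the lag mutant and 433 in wild type. The 2 dimmest probe sets of Kcnj3 were 1.08-fold lower and 1.06-fold higher. Kcnj9 (GIRK3) had 1217 in the lag mutant and 898 in wild type, 1.36-fold higher, and both its other probe sets above background were higher as well, by 1.19-fold and 1.41-fold. Kcnj5 (GIRK4) had 108 in the lag mutant and 78.4 in wild type, 1.38-fold higher.

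Kcnj6 (GIRK2), abundant in dopamine neurons, went the other way. It had 48.5, under background, in the lag mutant and 57.6 in wild type, at least 1.17-fold lower, and a second probe set gave 35.3, under background, in the lag mutant and 57.2 in wild type. All signals of Kcnj6 were thus near or under background. Gnb1 and Gng2, G protein subunits of the kind that open GIRK channels, were 1.08-fold and 1.15-fold higher in the lag mutant.

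Markers of other neurons also differed. Those of excitatory cortical neurons were 4 higher and 1 lower of 5 on the array, and summed to 17060 in the lag mutant and 12550 in wild type. Those of hypothalamus were 5 higher and 1 lower of 6, and summed to 4788 in the lag mutant and 2042 in wild type. Those of midbrain and hindbrain were 1 higher and 7 lower of 8 above background, and the 11 on the array summed to 962 in the lag mutant and 2190 in wild type, with En1, Hoxb5 and Chat under background on both. Slc6a3, the dopamine transporter, had 102 in the lag mutant and 402 in wild type. The part of these cells in the Kcnj3, Kcnj5, Kcnj6, Kcnj9 and Kcnq values was not tested.

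**Figure D3:**
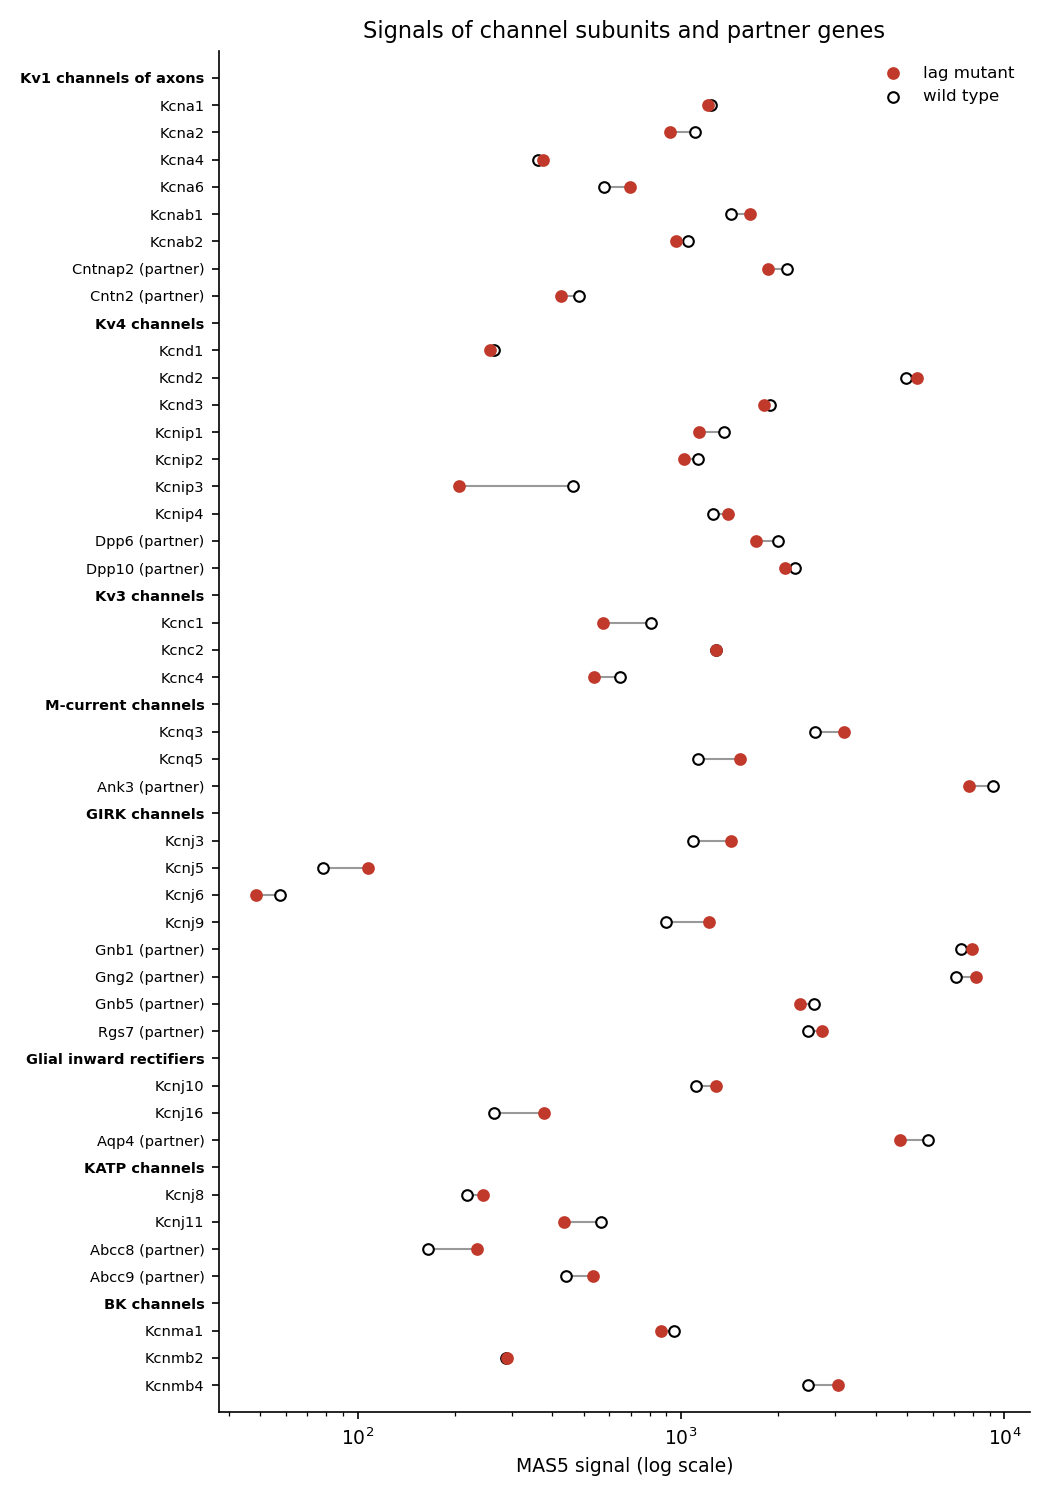
MAS5 signal (horizontal axis, log scale) in the lag mutant (red) and in wild type (open) for channel genes grouped by the channel they form, with partner genes marked. Signals of different genes come from different probes and are not to be compared; within a row, Kcnip3 shows 206 in the lag mutant and 464 in wild type.

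Inward rectifiers of glia had no lower signal in the lag mutant by their brightest probe sets. Kcnj10 (Kir4.1), the uptake channel of astrocytes and oligodendrocytes, had 1280 in the lag mutant and 1115 in wild type, 1.15-fold higher by its only probe set. Kcnj16 (Kir5.1), which forms mixed channels with it, had 377 in the lag mutant and 265 in wild type, 1.42-fold higher, but a second probe set gave 180 in the lag mutant and 193 in wild type. Astrocyte markers were 2 higher and 6 lower of 8, and summed to 46865 in the lag mutant and 53773 in wild type. Among them, Aqp4, the water channel of astrocyte endfeet, had 4750 in the lag mutant and 5810 in wild type, and Gfap, raised in reactive astrocytes, had 274 in the lag mutant and 156 in wild type. The part of astrocytes, oligodendrocytes and their precursors in the Kcnj10 and Kcnj16 values was not tested.

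Kir2 channels hold the resting potential. Kcnj12 (Kir2.2) had 71.5 in the lag mutant and 111 in wild type, 1.55-fold lower by a single dim probe set, and Kcnj4 (Kir2.3) had 419 in the lag mutant and 320 in wild type, 1.31-fold higher. ATP-sensitive channels couple metabolism to excitability, and their subunits did not share a direction. Kcnj11 (Kir6.2), the neuronal pore, had 434 in the lag mutant and 564 in wild type, 1.30-fold lower. Kcnj8 (Kir6.1), the pore of pericytes and smooth muscle, had 244 in the lag mutant and 218 in wild type. The receptor subunits Abcc8 (SUR1) and Abcc9 (SUR2) were 1.41-fold and 1.21-fold higher in the lag mutant. Kcnj1, Kcnj2, Kcnj14 and Kcnj15 were under background on both arrays.

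Leak channel subunits with a pair of pore domains differed little. Of 10 above background, 7 (70%) were higher in the lag mutant, against 51.9% of all genes, and 3 lower. Their log2 ratios ran from -0.13 to 0.35, with a median of 0.04. Kcnk1 (TWIK1), of astrocytes and neurons, had 2483 in the lag mutant and 2478 in wild type. Kcnk2 (TREK1), opened by stretch and lipids, had 1712 in the lag mutant and 1871 in wild type. Kcnk3 (TASK1), which acid closes, was 1.02-fold lower, and Kcnk10 (TREK2) was 1.03-fold higher by its brighter probe set. The other probe set of Kcnk10 gave 46.3, under background, in the lag mutant and 67.7 in wild type, at least 1.38-fold lower, so its direction depends on the probe set. Kcnk4 (TRAAK), a mechanosensitive channel of nodes of Ranvier, had 81.1 in the lag mutant and 77.2 in wild type. Kcnk6 (TWIK2) had the highest ratio of the class, with 235 in the lag mutant and 184 in wild type.

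Kcnk13 (THIK1), a resting channel of microglia, had 113 in the lag mutant and 119 in wild type, while microglia markers were 5 higher and 1 lower of 6 and summed to 7770 in the lag mutant and 6816 in wild type. Kcnk12 and Kcnk15 lay within 1.06-fold, and Kcnk7 had 58.4 in the lag mutant and 50.4, under background, in wild type. Kcnk5 and Kcnk16 were under background on both arrays.

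Calcium- and sodium-activated channels lay within 1.25-fold by their brightest probe sets, but those of Kcnma1 diverged. Kcnma1 encodes the pore of the BK channel, which calcium and voltage open together. Its brightest probe set gave 867 in the lag mutant and 951 in wild type, and another pair lay within 1.03-fold. The other two were lower, with 228 in the lag mutant and 598 in wild type, 2.62-fold, and with 183 in the lag mutant and 283 in wild type, 1.54-fold. The 5 log2 ratios of Kcnma1 thus spanned 1.43, and their mean was -0.42. Of the beta subunits, Kcnmb4 of neurons had 3051 in the lag mutant and 2474 in wild type, 1.23-fold higher, and Kcnmb2 was level by its brighter probe set.

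Kcnn1 and Kcnn2 encode small-conductance channels of the afterhyperpolarisation. Kcnn1 had 355 in the lag mutant and 313 in wild type, but its other probe set was 1.16-fold lower, and Kcnn2 had 466 in the lag mutant and 504 in wild type. Kcnt1, a sodium-activated channel, had 404 in the lag mutant and 504 in wild type, 1.25-fold lower, with its other probe sets 1.05-fold and 1.04-fold lower. Its relative Kcnt2 had 1175 in the lag mutant and 966 in wild type, 1.22-fold higher by its only probe set. Kcnt2 lies nearest to Kif14 among these genes, 18 protein-coding genes away on chromosome 1 in the order of the RefSeq table. Kcnu1, known from sperm, was 1.09-fold higher. Kcnn3, Kcnn4 and Kcnmb1 were under background on both arrays.

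Probe sets of the same gene are the only repeat within an array. Several probe sets above background on both arrays read 28 channel genes, of which 17 (60.7%) had all of them on the same side of 0, against 45.1% of 5952 such genes. The median range of log2 ratios between probe sets of a gene was 0.31 for the channel genes and 0.32 for all genes. Of the 64 channel genes, 46 (71.9%) had a log2 ratio no larger in size than 0.32. The share of all genes within that range was not counted, so this does not set the channel genes apart. Within 1.5-fold the shares were close, 93.8% of the channel genes and 92.3% of all genes. Ranges over 1 were found for Kcnip3, Kcnma1 and Kcnq5, 3 genes of the 28 (10.7%), against 6.12% of all such genes.

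Taken one by one, 3 of the 114 probe sets of channel genes above background were at least 2-fold lower in the lag mutant (2.63%), against 1.38% of all probe sets, and 0 were at least 2-fold higher, against 0.736%. At 1.5-fold, 8 were lower (7.02%), against 5.07% of all probe sets, and 4 were higher (3.51%), against 4.46%. The 3 past 2-fold belonged to Kcnip3, Kcnma1 and Kcnc4, and each of these genes had another probe set within 1.21-fold. The probe sets were not placed on exons or 3′ ends here.

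**Figure D4:**
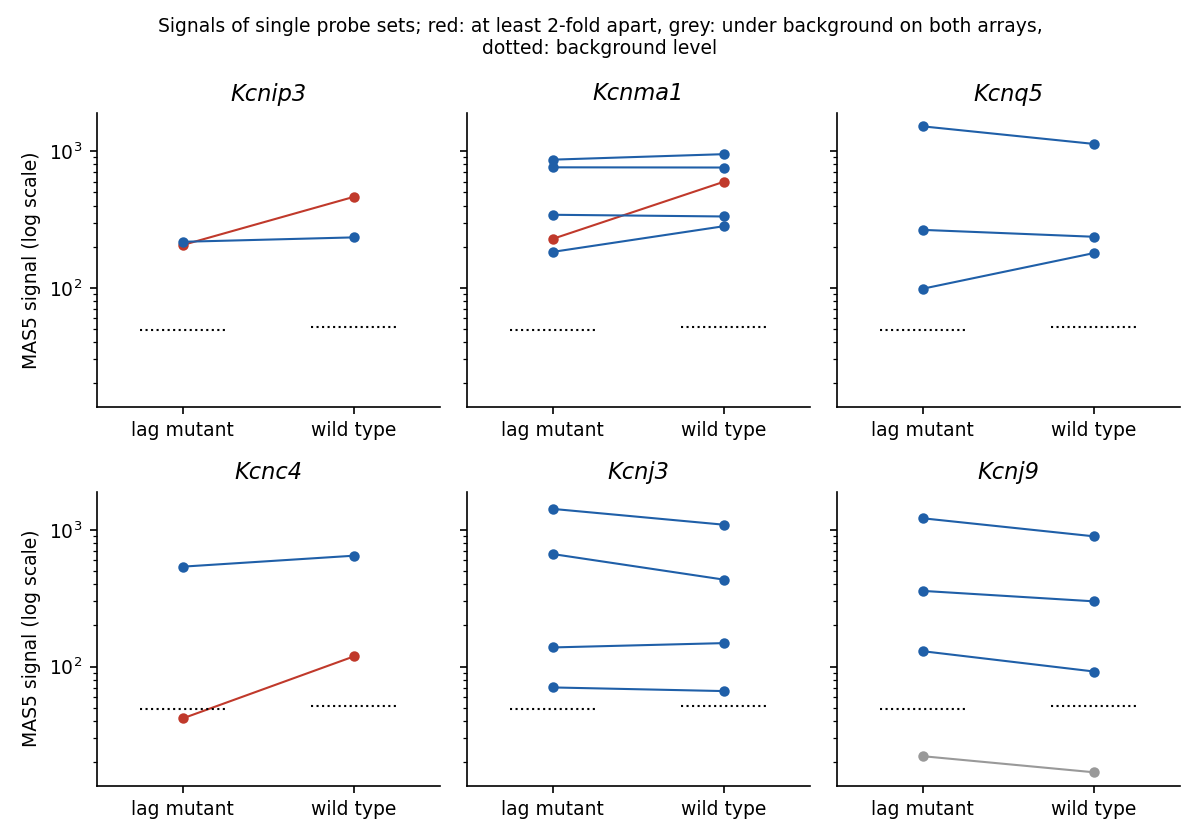
MAS5 signal (vertical axis, log scale) of each probe set of 6 genes in the lag mutant and in wild type, joined by a line; red probe sets are at least 2-fold apart, grey ones under background on both arrays, and dotted lines are the background levels. Probe sets of Kcnip3, Kcnma1, Kcnq5 and Kcnc4 diverge, while the 3 blue lines of Kcnj9 are all higher in the lag mutant.

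Of 47 partner genes of potassium channels and potassium transport, such as anchors, pumps and cotransporters, 37 were on the array and 33 were above background. All 33 lay within 1.5-fold, as did 92.3% of all genes above background. Of the 33, 15 were higher in the lag mutant and 18 lower. Their median log2 ratio was -0.03, against 0.01 over all genes. Vapb, a tethering protein of the endoplasmic reticulum membrane, was the highest, with 1787 in the lag mutant and 1252 in wild type. Slc12a2 (NKCC1), a cotransporter that loads chloride, was the lowest, with 1655 in the lag mutant and 2137 in wild type. Slc12a5 (KCC2), the neuronal potassium-chloride cotransporter, had 9336 in the lag mutant and 9632 in wild type. Atp1b1, a subunit of the sodium-potassium pump, had 18802 in the lag mutant and 21998 in wild type.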

How the data were processed

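Cerebrum RNA at P14 from 1 lag mutant and 1 wild-type sample had been hybridised to Affymetrix GeneChip mouse genome arrays. The authors calculated an intensity per probe set with MAS5 at default settings and global scaling. The deposited intensities are linear and hold no detection calls. Leaving out 2% of values at each end, their mean was 500.0 on either array, and medians were 98.3 in the lag mutant and 105 in wild type.

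Of 45101 probe sets, 932 matched several genes and 9211 had no gene in the annotation table used here; the remaining 34958 were named, 34754 of them through the RefSeq table of GRCm38.p6. Background probe sets were those of olfactory, taste and vomeronasal receptors, keratin-associated proteins, defensins and placental prolactins. A signal under background was replaced by that array's level, giving a bound, and no ratio was given where both were under it or the bound turned the direction. The spread between mice is unknown, and 2 arrays limit the precision.

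The members and lists were chosen with earlier results of these data known. The rule named members past 1.5-fold, the 2 largest differences each way per class, those with well-known roles, those within 20 genes of Kif14 and those with probe sets over 1 log2 unit apart. Other members, and the grouping into complexes, were chosen after values were seen. The calculation was tested on simulated data with large changes planted in bright genes and little noise. That test did not cover small differences such as most of those reported here. Python 3.11.15, numpy 2.4.6, pandas 2.3.3, scipy 1.17.1 and matplotlib 3.10.9 were used.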

Additional observations from a re-analysis of the deposited data

How the results depend on the processing

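No paired analysis was possible because there was only 1 array for each genotype, and no array could be left out. Counts of channel genes depended on how probe sets were combined and where background was set. Averaging a gene's probe sets, with bounds averaged as they stood, left 0 genes at least 2-fold lower. Using unique probe sets only gave 2, Kcnip3 and Kcnc4. With no background level, 4 genes were lower and 2 higher past 2-fold, and 6 were past 1.5-fold each way; those added past 2-fold (Kcne1, Kcnj2, Kcnq1, Kcnn3 and Kcnv2) were under background on both arrays. A level at the 90th percentile gave 2 genes at least 1.5-fold higher, with Kcnh5 added. A level at the 99th (133 in the lag mutant and 151 in wild type) left 1 gene lower and 0 higher past 1.5-fold: Kcnab3 and Kcnj12 were then under background on both arrays, and the wild-type signal of Kcne4 was too. Quantile normalization left 1 at least 1.5-fold lower, Kcnip3. Averaged over probe sets, the log2 ratio of Kcnip3 was -0.64 and of Kcnq5 -0.09. Averages that held a bound were -0.06 or higher for Kcnc1, so its direction was not settled, and -0.77 or lower for Kcnc4. With unique probe sets the ratio of Kcnc4 was -1.28 or lower. The median of the channel genes stayed between 0.04 and 0.08. Inward rectifiers kept the highest class median in every setting, at times narrowly. With averaged probe sets it was 0.20, against 0.16 for silent subunits. With unique probe sets it was 0.292, against 0.283 for the Kcnq and Kcnh subunits. With the level at the 90th percentile it was 0.199, against 0.195 for silent subunits. Some small medians turned direction. With averaged probe sets that of the voltage-gated pore subunits was 0.00, of the Kcnq and Kcnh subunits -0.03 and of the partner genes 0.09, against -0.03, 0.09 and -0.03 as reported; the partner genes had 0.04 with unique probe sets, and the auxiliary subunits 0.02 with the level at the 99th percentile, against -0.12. Among the genes named by the rule, averaging also turned Kcnk10 to -0.21 or lower, Kcnn1 to -0.01 and Kcnv1 to 0.16. Unique probe sets turned Kcnh3 to 0.27. Another scaling turned genes that were almost level: Kcnk1, Kcnk3, Kcnk13 and Kcns3 under quantile normalization, and Kcnc2 and Kcnk1 with the mutant array rescaled. Averaging took Kcnab3 to -0.40 or lower, a bound that was not counted as past 1.5-fold, and brought Kcnc4 past it. The count of 3 lower at 1.5-fold then held different genes.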
